A study of Mus musculus with 72 samples.

Results

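Ppy, Pyy and Npy are the genes of the neuropeptide Y hormone family, and each was taken as the row of the deposited expression table that carries its symbol, which gave 3 of the 14604 genes in the table. They were measured by RNA sequencing in 69 libraries of isolated pancreatic islets, each from 1 male mouse whose age the labels give as 8 weeks. The mice belonged to the inbred strains C57BL/6J (23 libraries), DBA/2J (22) and BALB/cJ (24), with no transgene or deletion named in the labels, and were fed either regular chow (RC) or a diet rich in fat (HFD, high fat diet in the labels) until day 5, 13 or 33. The strains are inbred, so mice of 1 strain are near-identical in genotype, and tests compare against the spread between mice of a group. This makes 18 groups, of which 15 held 4 libraries and 3 held 3 libraries, namely DBA/2J on RC at day 33, DBA/2J on HFD at day 13 and C57BL/6J on RC at day 33. In all, 35 libraries were from HFD and 34 from RC mice. Batches of 120 to 150 islets per mouse recovered overnight in culture before RNA was extracted, so each value averages over all islet cells of a mouse, and more cells of a type cannot be told apart from more RNA per cell.

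The peptides of this family share a hairpin-like fold and an amidated end, and they act on receptors that couple to inhibitory G proteins. Pancreatic polypeptide, the product of Ppy, is the hormone of the PP (gamma) cells of the islet. Peptide YY, the product of Pyy, is best known from the gut and is also made in islet endocrine cells, while neuropeptide Y, the product of Npy, is a transmitter of sympathetic neurons that some islet cells make as well. In islets, peptide YY and neuropeptide Y are known to restrain insulin secretion through the Y1 receptor.

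Ppy (ENSMUSG00000017316.13) lies on GRCm38 chromosome 11 from 102099930 to 102101319 on the minus strand, and Pyy (ENSMUSG00000017311.15) from 102106676 to 102107832 on the same strand, 5356 bp away with no annotated gene between them. Npy (ENSMUSG00000029819.6) lies on chromosome 6 from 49822710 to 49829507 on the plus strand. All 3 are protein-coding and no annotated gene overlaps them. The 250 bases before the start of each gene are shown because the neighbours Ppy and Pyy varied together across mice and Npy did not (RefSeq, GRCm38.p6, strand of the gene, 5′ to 3′). They span chr11:102101320-102101569 for Ppy, chr11:102107833-102108082 for Pyy (the first of 2 RefSeq starts) and chr6:49822460-49822709 for Npy, and capitals mark the letters TATAA and CANNTG.
Ppy: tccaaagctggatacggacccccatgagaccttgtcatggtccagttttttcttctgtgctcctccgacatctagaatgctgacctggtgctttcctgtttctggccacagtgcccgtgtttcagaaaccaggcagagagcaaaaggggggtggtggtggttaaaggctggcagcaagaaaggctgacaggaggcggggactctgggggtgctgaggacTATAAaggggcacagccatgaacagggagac
Pyy: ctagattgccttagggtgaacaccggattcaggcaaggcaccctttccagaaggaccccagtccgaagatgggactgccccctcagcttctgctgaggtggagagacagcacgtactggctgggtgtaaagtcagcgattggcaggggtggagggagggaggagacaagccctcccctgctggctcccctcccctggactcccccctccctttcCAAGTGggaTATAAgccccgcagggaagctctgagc
Npy: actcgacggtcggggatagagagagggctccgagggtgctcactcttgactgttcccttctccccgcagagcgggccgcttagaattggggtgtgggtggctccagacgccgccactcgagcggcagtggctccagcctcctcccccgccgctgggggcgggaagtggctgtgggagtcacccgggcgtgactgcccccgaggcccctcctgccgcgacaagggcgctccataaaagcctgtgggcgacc
TATAA begins 31 bases before the start of Ppy and 27 bases before the first start of Pyy, and it does not occur in the Npy window. CANNTG, the pattern that basic helix-loop-helix factors bind, occurs 36 bases before the start of Pyy and in neither of the other 2 windows. GGGCGG, a GC box, occurs 95 bases before the start of Npy only, and TAAT and TGACG occur in none of the 3 windows. With both strands searched, TATAA was present in 22.8% of 32851 RefSeq promoter windows of 250 bases, CANNTG in 66.2%, GGGCGG in 32.7%, TAAT in 54.9% and TGACG in 17.8%. CANNTG reads the same on both strands, and the searched motifs do not overlap one another in the windows shown. A match of letters is a description of the window and does not show that a factor binds there. Whether these sequences bear on how the genes varied across mice was not tested.

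Levels are given as log2 CPM, the logarithm of reads scaled by the authors to a common library size, so 1 unit is a doubling. Each library held between 12292621 and 34591079 reads over these genes (median 22756199). Ppy had at least 20170 reads and Pyy at least 7688 reads in every library, while Npy had 28 to 419 reads in DBA/2J, 34 to 297 in C57BL/6J and 425 to 2895 in BALB/cJ libraries. The islet identity of the samples shows in the order of genes by CPM per kilobase of exon, where Ins2 ranked 1, Gcg 3 and Sst 8 of 14589 genes. Markers of acinar cells, which surround islets, were also present, with a summed level of 294.5 to 44320 CPM per library.

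Ppy was among the most abundant transcripts of these islets. At a mean of 6837 CPM per kilobase it ranked 5 of 14589 genes, above Sst at 4200 CPM per kilobase. Pyy followed at rank 16 with 1849 CPM per kilobase, and Npy stood far lower, at rank 630 with 46.8 CPM per kilobase. The members also differed in how much they varied between mice of the same group, and all 3 varied more than the median gene. The SD within groups was 0.67 log2 for Npy, 0.46 for Ppy and 0.31 for Pyy, against a median of 0.18 over all genes, and Npy ranked 328 of 14604 genes by this SD.

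**Figure D1:**
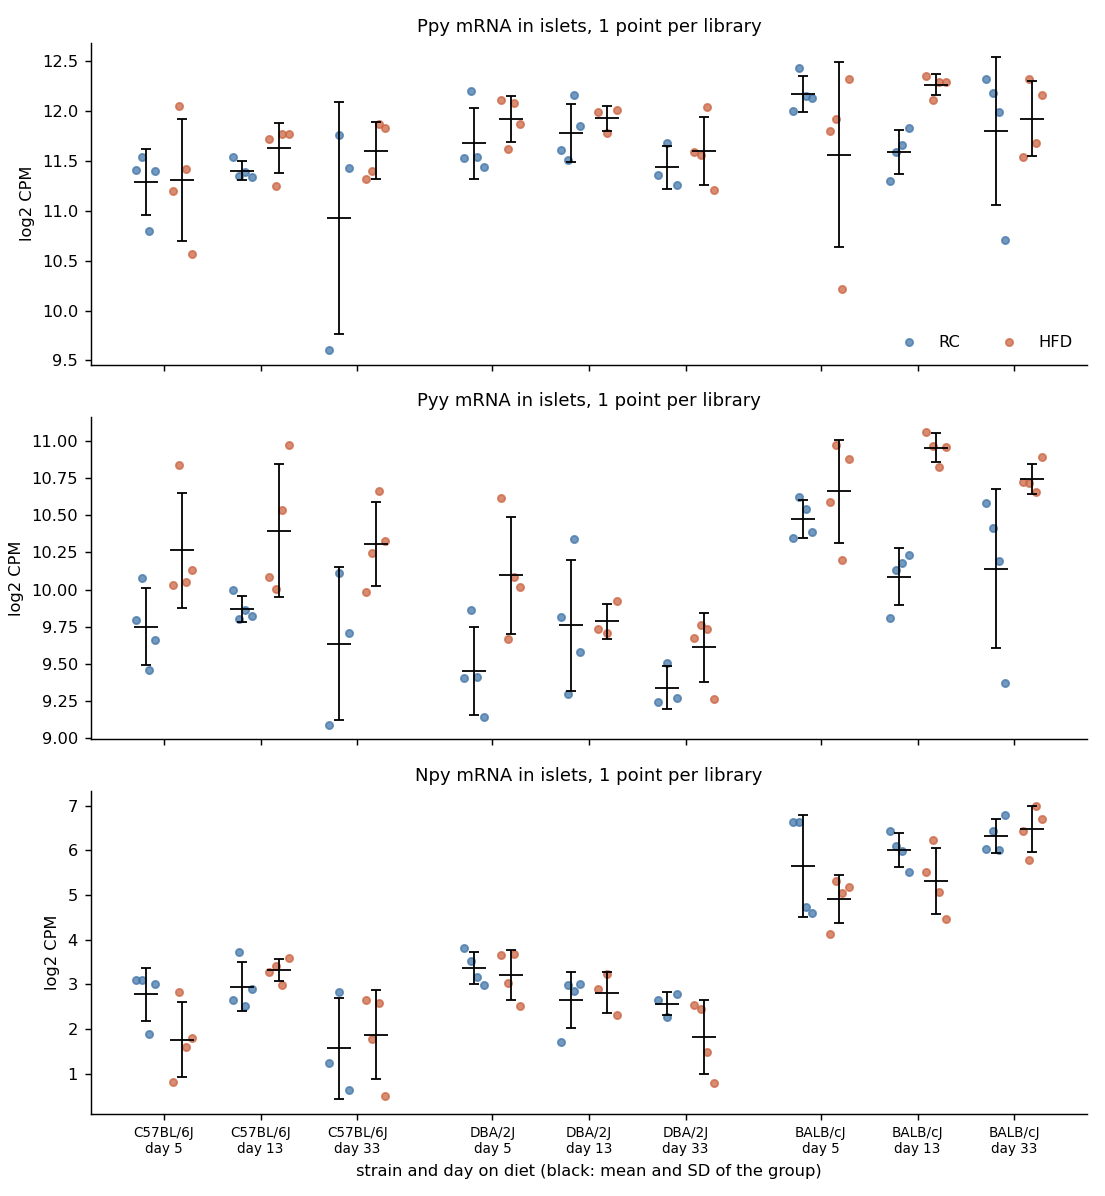
Levels of Ppy, Pyy and Npy in log2 CPM (vertical axes, scaled separately) in every library, by strain and day, with RC in blue, HFD in orange and black bars for the mean and SD of each group. All BALB/cJ libraries lie above all others for Npy, and the mean of Pyy under HFD is above that under RC in 9 of 9 pairs.

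Pyy was the member that rose under HFD. Averaged over strains and days, it was higher by 0.48 ± 0.07 log2 (SE, 1.39-fold), with an adjusted p of 2.97e-05 by limma with the Benjamini-Hochberg method over all genes, which ranked it 8 by p among 14604 genes. At the threshold used throughout, an adjusted p of 0.05, 5.47% of genes were called, and 1 of the 3 members. Ppy was higher under HFD by 0.18 ± 0.11 (95% interval -0.03 to 0.40, adjusted p = 0.322 by limma) and Npy lower by 0.26 ± 0.15 (log2 change -0.26, interval -0.57 to 0.05, adjusted p = 0.346), and neither passed.

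The Pyy values of single mice show the shift in most strain and day pairs. In C57BL/6J at day 13, RC libraries had 9.997, 9.80, 9.86 and 9.82 log2 CPM and HFD libraries 10.08, 10.002, 10.53 and 10.97. Every HFD value there was above every RC value, the closest by a small margin. In C57BL/6J at day 5, RC libraries had 9.79, 10.08, 9.46 and 9.66 and HFD libraries 10.03, 10.84, 10.05 and 10.13. The groups overlapped through 1 high RC library, and 1 HFD library stood well above the other 3. At day 33, RC libraries had 9.09, 10.11 and 9.71 and HFD libraries 9.98, 10.25, 10.66 and 10.33, again with an overlap from 1 RC library.

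BALB/cJ had the largest single difference in Pyy. At day 13 its RC libraries had 9.81, 10.13, 10.18 and 10.23 log2 CPM and its HFD libraries 11.06, 10.96, 10.83 and 10.96, with no overlap. At day 33, RC libraries had 10.58, 10.42, 10.19 and 9.37 and HFD libraries 10.72, 10.71, 10.65 and 10.89, which also did not overlap. At day 5 the groups overlapped, with 10.35, 10.62, 10.54 and 10.39 under RC and 10.59, 10.97, 10.20 and 10.88 under HFD. Here 3 of the 4 HFD libraries were above the RC mean and 1 lay below all RC libraries.

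In DBA/2J the groups overlapped at every day. At day 5, RC libraries had 9.40, 9.86, 9.41 and 9.15 log2 CPM of Pyy and HFD libraries 10.62, 9.67, 10.08 and 10.02, so that 1 RC library reached into the HFD range. At day 13, RC libraries had 9.81, 9.30, 10.34 and 9.58 and HFD libraries 9.73, 9.71 and 9.92, which lay inside the RC range. At day 33, RC libraries had 9.24, 9.51 and 9.27 and HFD libraries 9.68, 9.76, 9.74 and 9.27. All but 1 HFD library were above the 3 RC libraries.

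Counted over the 9 pairs of strain and day, the mean of Pyy was higher under HFD in 9 of 9, which 0.452% of all genes were. All HFD libraries were above all RC libraries in 3 pairs, BALB/cJ day 13 (3.23% of genes did the same), BALB/cJ day 33 (2.29%) and C57BL/6J day 13 (4.5%). The mean of Ppy was higher under HFD in 8 of 9 pairs. The share of all genes with such a count was not computed, and the change of Ppy over all strains did not pass. Its groups did not overlap in 1 pair, BALB/cJ day 13 (3.23% of genes did the same). There RC libraries had 11.29, 11.58, 11.65 and 11.83 log2 CPM and HFD libraries 12.35, 12.11, 12.29 and 12.29. BALB/cJ day 5 was the exception for Ppy, with 11.99, 12.42, 12.14 and 12.12 under RC and 11.79, 11.92, 10.22 and 12.31 under HFD, where 1 HFD library was far below the rest. Npy was higher under HFD in 4 of 9 pairs, and its groups overlapped in every pair.

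Within strains, Pyy rose in C57BL/6J by 0.57 ± 0.13 log2 (adjusted p = 0.00177 by limma, 14.6% of genes called) and in BALB/cJ by 0.55 ± 0.12 (adjusted p = 0.031, 0.151% called). The BALB/cJ call rested on several single mice. Without any 1 of 9 of its 24 libraries the adjusted p by limma was 0.0533 to 0.123, with a log2 change of 0.468 to 0.604 over all leave-outs. These were RC day 5 replicates 1 and 4, RC day 13 replicates 1 and 2, RC day 33 replicate 4, HFD day 5 replicate 2, HFD day 13 replicates 1 and 2, and HFD day 33 replicate 4. In C57BL/6J the adjusted p by limma was 0.179 (log2 change 0.519) with the number in the library title as a covariate, a number whose meaning the labels do not give. In C57BL/6J at day 5, every HFD library had a lower title number than every RC library. Diet and whatever the number records cannot be told apart in that pair. In DBA/2J, where limma called 0% of genes (599 at an unadjusted p under 0.05, and 0 by voom on the recovered reads), Pyy was higher by 0.31 ± 0.13, with an unadjusted p of 0.0185 and an adjusted p of 0.999. Ppy and Npy passed in no strain: the log2 change of Ppy was 0.30 in C57BL/6J, 0.19 in DBA/2J and 0.06 in BALB/cJ, and that of Npy -0.11, -0.24 and -0.42.

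At single days no member passed. The share of genes called by limma was 1.87% in C57BL/6J at day 5, 1.04% at day 13 and 0% at day 33, 0.548%, 0% and 0.0205% in DBA/2J, and 0.315%, 0.00685% and 0% in BALB/cJ. In the 3 contrasts with no call, 2180, 599 and 669 genes had an unadjusted p under 0.05 in limma. The log2 change of Pyy at single days ran from 0.03 ± 0.23 in DBA/2J at day 13 to 0.87 ± 0.21 in BALB/cJ at day 13 (adjusted p = 0.185 by limma). The difference of the Pyy diet effect between strains did not pass either. It was -0.26 (95% interval -0.62 to 0.11) for DBA/2J minus C57BL/6J, -0.02 (-0.37 to 0.34) for BALB/cJ minus C57BL/6J and 0.24 (-0.12 to 0.60) for BALB/cJ minus DBA/2J, in contrasts that called 1.11%, 1.27% and 0% of genes by limma (472 at an unadjusted p under 0.05 in the last). The intervals of the contrasts that involve DBA/2J allow differences between strains larger than the average effect of 0.48. That of BALB/cJ minus C57BL/6J does not.

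**Figure D2:**
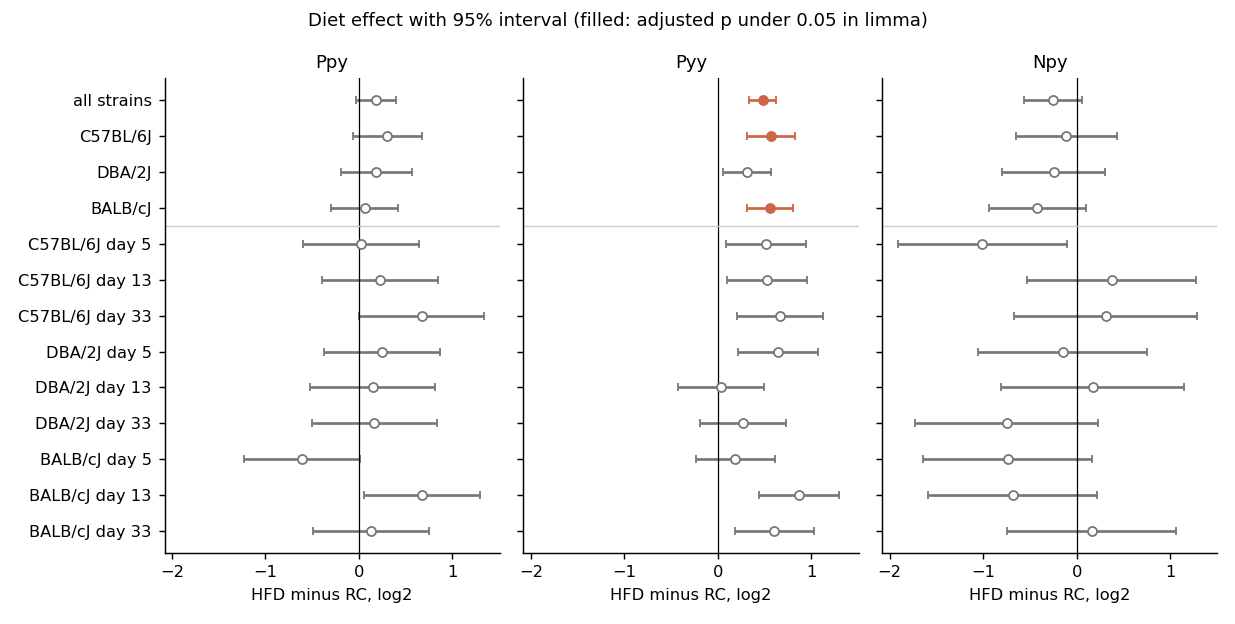
Log2 change from RC to HFD (horizontal axes, with 95% intervals) for Ppy, Pyy and Npy, averaged over strains and days, per strain and per strain and day. Filled points passed an adjusted p of 0.05 in limma. Pyy passed over all strains (0.48), in C57BL/6J (0.57) and in BALB/cJ (0.55), and its point estimates lie to the right of 0 throughout.

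The members responded to HFD unequally. Within libraries, the log2 level of Pyy minus that of Ppy was higher under HFD by 0.29, in 7 of 9 pairs of strain and day (permutation test of diet labels within strain and day, two-sided, 100000 resamples, p = 7e-05, adjusted p = 0.000135 over 3 comparisons). Pyy minus Npy was higher by 0.74, in 8 of 9 pairs (permutation p = 9e-05, adjusted p = 0.000135). Ppy minus Npy was higher by 0.44, in 6 of 9 pairs (permutation adjusted p = 0.0224). A change of scale between libraries cancels in these differences. Leaving out C57BL/6J RC day 33 replicate 1, the library with the lowest Ppy, raised the permutation adjusted p of the last difference to 0.0529.

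Npy separated the strains. Its level in BALB/cJ was 4.60 to 6.80 log2 CPM on RC (median 6.06, n = 12) and 4.14 to 6.99 on HFD (median 5.41, n = 12). In C57BL/6J it was 0.64 to 3.73 on RC (median 2.83, n = 11) and 0.51 to 3.59 on HFD (median 2.61, n = 12). In DBA/2J it was 1.71 to 3.81 on RC (median 2.98, n = 11) and 0.79 to 3.68 on HFD (median 2.55, n = 11). All 24 BALB/cJ libraries were above all other libraries, which was so for 0.541% of genes, and C57BL/6J and DBA/2J overlapped over most of their range.

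On RC, Npy was higher in BALB/cJ than in C57BL/6J by 3.56 ± 0.27 log2 (SE, 11.8-fold, adjusted p = 1.63e-17 by limma) and higher than in DBA/2J by 3.13 ± 0.27 (8.76-fold, adjusted p = 3.83e-15). These contrasts called 56.3% and 35% of all genes, so a call alone sets a gene little apart here, and the size does more. DBA/2J and C57BL/6J differed by 0.43 ± 0.27 (adjusted p = 0.184 by limma, in a contrast that called 54.5% of genes), which was not beyond the spread between mice. On HFD the differences of Npy were 3.25 (BALB/cJ minus C57BL/6J, 54.5% of genes called), 2.95 (BALB/cJ minus DBA/2J, 35.1%) and 0.30 (DBA/2J minus C57BL/6J, 58.6%), of which limma called the first 2. Ordered by level, the 18 groups changed by more than their spread at 1 place for Npy, between the lowest BALB/cJ group (HFD day 5, 4.92) and the highest other group (DBA/2J RC day 5, 3.37).

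Pyy was also highest in BALB/cJ, by much less. On RC it ranged from 9.37 to 10.62 log2 CPM in BALB/cJ, from 9.09 to 10.11 in C57BL/6J and from 9.15 to 10.34 in DBA/2J, and the 3 ranges overlapped. BALB/cJ was higher than C57BL/6J by 0.48 ± 0.13 (adjusted p = 0.00101 by limma) and than DBA/2J by 0.72 ± 0.13 (adjusted p = 4.5e-06), while DBA/2J and C57BL/6J did not pass (-0.24 ± 0.13, adjusted p = 0.119). These contrasts called 56.3%, 35% and 54.5% of all genes. On HFD, with ranges of 10.20 to 11.06, 9.98 to 10.97 and 9.27 to 10.62 in the same order, all 3 differences passed in limma: 0.46 for BALB/cJ minus C57BL/6J, 0.96 for BALB/cJ minus DBA/2J and -0.49 for DBA/2J minus C57BL/6J. There 54.5%, 35.1% and 58.6% of all genes were called, so a call alone sets Pyy little apart. With the levels of Gcg and Sst in the model, the difference between BALB/cJ and C57BL/6J was 0.006 on RC and -0.017 on HFD, and limma called neither (adjusted p = 0.983 and 0.956), whereas that between BALB/cJ and DBA/2J still passed. With the macrophage and endothelial marker means in the model it was 0.295 on RC and 0.318 on HFD and passed in neither (adjusted p = 0.307 and 0.29 by limma). Sst, the somatostatin gene, was itself higher in BALB/cJ than in C57BL/6J by 0.71 and Gcg, the glucagon gene, by 0.49.

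Differences of Ppy between strains were at most 0.65 log2. On RC it ranged from 10.71 to 12.42 log2 CPM in BALB/cJ, 9.60 to 11.76 in C57BL/6J and 11.26 to 12.20 in DBA/2J. It was higher in BALB/cJ than in C57BL/6J by 0.65 ± 0.18 (adjusted p = 0.00233 by limma, 56.3% of all genes called). The other differences on RC were 0.42 ± 0.19 for DBA/2J minus C57BL/6J (adjusted p = 0.0528 by limma, 54.5% called) and 0.22 ± 0.18 for BALB/cJ minus DBA/2J (adjusted p = 0.371, 35% called). On HFD none of the 3 passed, with log2 differences of 0.10 to 0.40, in contrasts that called 35.1% to 58.6% of all genes. On HFD the difference between BALB/cJ and C57BL/6J was close to the threshold (adjusted p = 0.0509 by limma). It passed in 5 of 16 other settings, with voom, with the replicate block, with the acinar mean in the model, without day 5 and without day 33. It also passed without any 1 of 7 of the 24 libraries. Where it passed, the log2 difference was 0.408 to 0.553. Over all 16 settings it was 0.216 to 0.479 (adjusted p up to 0.6 by limma). Over all leave-outs it was 0.321 to 0.553 (adjusted p up to 0.128). The RC call was lost with Gcg and Sst in the model (0.52, adjusted p = 0.148 by limma) and with the macrophage and endothelial marker means in it (0.58, adjusted p = 0.157).

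The group means of Npy fell into a high set and a low set. In BALB/cJ they were, from the highest, 6.48 ± 0.51 (SD) on HFD day 33, 6.32 ± 0.38 on RC day 33, 6.00 ± 0.38 on RC day 13, 5.65 ± 1.14 on RC day 5, 5.32 ± 0.74 on HFD day 13 and 4.92 ± 0.53 on HFD day 5. The other 12 groups ran from 3.37 ± 0.37 (DBA/2J RC day 5) to 1.57 ± 1.13 (C57BL/6J RC day 33), with no gap between neighbours beyond their spread. The groups of Ppy formed a near-continuous order from 12.26 ± 0.10 (BALB/cJ HFD day 13) to 10.93 ± 1.16 (C57BL/6J RC day 33). Only the step from BALB/cJ RC day 5 (12.17 ± 0.18) to DBA/2J HFD day 13 (11.93 ± 0.13) was beyond the pooled SD, and those groups overlapped. The groups of Pyy ran from 10.95 ± 0.10 (BALB/cJ HFD day 13) to 9.34 ± 0.15 (DBA/2J RC day 33), with steps beyond the pooled SD below the first group and between BALB/cJ RC day 13 (10.09 ± 0.19) and C57BL/6J RC day 13 (9.87 ± 0.09).

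**Figure D3:**
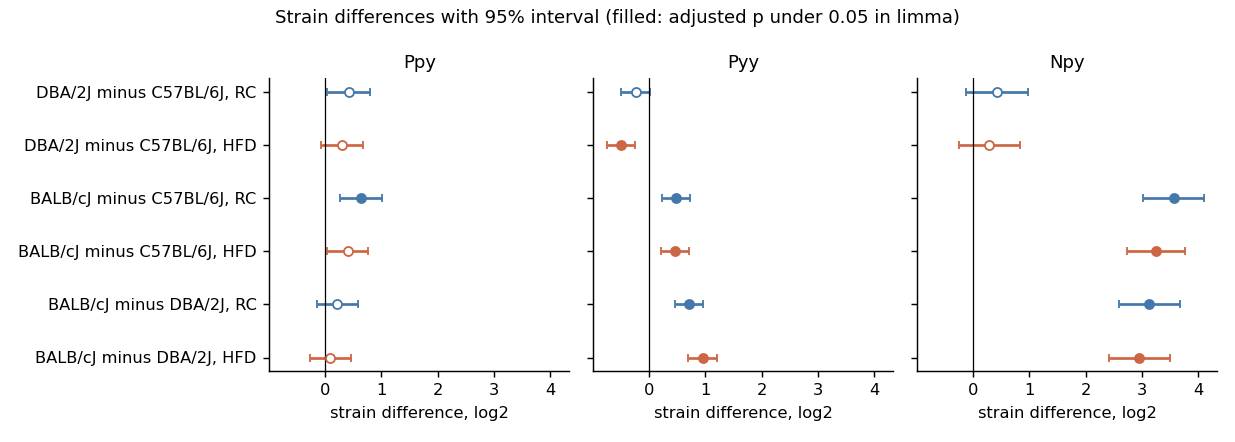
Log2 difference between strains (horizontal axes, with 95% intervals) for Ppy, Pyy and Npy on RC (blue) and HFD (orange). Filled points passed an adjusted p of 0.05 in limma. Npy in BALB/cJ stands 2.95 to 3.56 above the other 2 strains, while no difference of Ppy or Pyy exceeds 0.96.

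Between day 5 and day 33, limma called 1 change of a member within a strain and diet, that of Npy in DBA/2J on HFD. In DBA/2J on HFD it was 3.65, 3.03, 3.68 and 2.51 log2 CPM at day 5 and 2.55, 2.46, 1.496 and 0.79 at day 33. All but 1 of the day 33 values lay below all day 5 values. The change was -1.39 ± 0.45 (adjusted p = 0.0208 by limma, in a contrast that called 23.3% of genes), and it lost the call without any 1 of 4 of the 8 libraries (HFD day 5 replicates 1 and 3, HFD day 33 replicates 3 and 4), with an adjusted p of 0.0504 to 0.12. The call was also lost in limma with voom on the recovered reads (-1.382, adjusted p = 0.1), with array weights (-0.662, adjusted p = 0.136), with Gcg and Sst in the model (-0.726, adjusted p = 0.277) and with the title number fitted per strain (-2.537, adjusted p = 0.866). In BALB/cJ on HFD, Npy was 4.14, 5.31, 5.05 and 5.18 at day 5 and 6.43, 5.79, 6.99 and 6.70 at day 33. That difference of 1.56 ± 0.45 did not pass in limma (adjusted p = 0.0891, 0.555% of genes called). It passed in 2 of 15 other settings, on the recovered reads with voom (1.59, adjusted p = 0.0122) and with the Schwann cell mean in the model (1.913, adjusted p = 0.0187). Over the 15 settings it was 0.396 to 1.913, with an adjusted p up to 0.811 by limma. With 1 of the 8 libraries left out it was 1.301 to 1.790 and passed in 1 case, with an adjusted p up to 0.328. In C57BL/6J on RC, Npy was 3.11, 3.10, 1.89 and 3.01 at day 5 and 1.24, 2.83 and 0.64 at day 33, a change of -1.20 ± 0.49 (adjusted p = 0.279, 0.123% called).

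In the remaining day contrasts no member passed in limma, where 0.233% of genes were called in C57BL/6J on HFD, 0.00685% in DBA/2J on RC and 0.00685% in BALB/cJ on RC. Neither Ppy nor Pyy passed in any of the 6 day contrasts, and the log2 change of Pyy from day 5 to day 33 lay between -0.49 and 0.08. The change of the diet effect from day 5 to day 33 passed for no member within C57BL/6J (0.0205% of genes called), DBA/2J (0.0137%) or BALB/cJ (0%, and 706 genes at an unadjusted p under 0.05 in limma).

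Mice with high Ppy had high Pyy. Taken as deviations from the mean of their own group over 69 libraries, Ppy and Pyy had a Pearson r of 0.784 and a Spearman rho of 0.803. The permutation p within groups was 1e-05 for both, the smallest that 100000 resamples can give, and 0.00018 after adjustment over 18 relations. Without the 2 libraries farthest from the median of Ppy, r was 0.776. Within strains r was 0.866 in BALB/cJ (n = 24), 0.766 in C57BL/6J (n = 23) and 0.80 in DBA/2J (n = 22), so the relation held in each. Some low libraries, picked out after their values were seen, were low for both genes. C57BL/6J RC day 33 replicate 1 had the lowest Ppy (9.60) and the lowest Pyy (9.09) of all libraries, and BALB/cJ RC day 33 replicate 4 was lowest in its group for both (10.71 and 9.37), as was BALB/cJ HFD day 5 replicate 3 (10.22 and 10.20). Npy did not follow them, with r = 0.083 against Ppy (permutation adjusted p = 0.766) and 0.203 against Pyy (permutation adjusted p = 0.434).

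**Figure D4:**
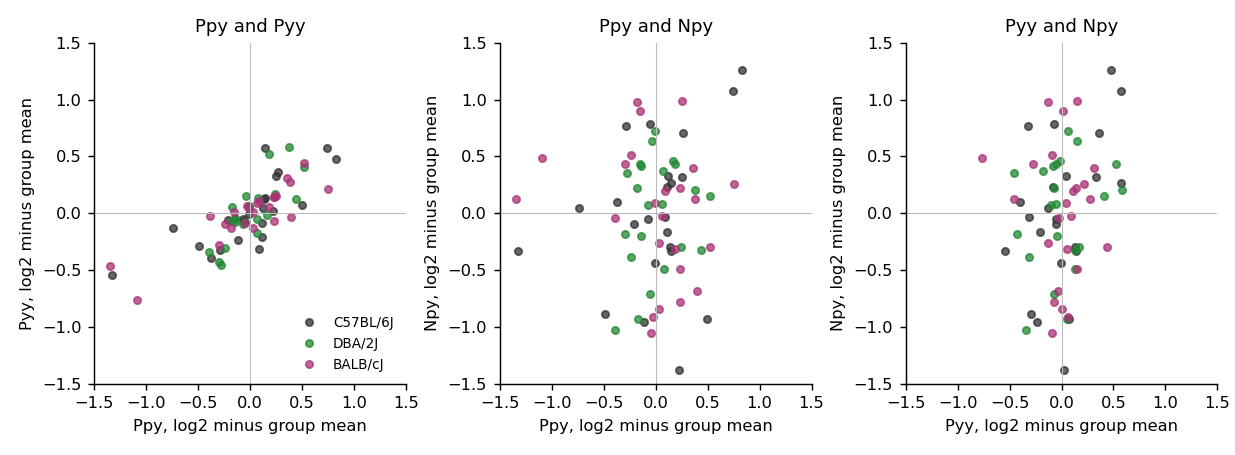
Deviations of Ppy, Pyy and Npy from the mean of their group (log2, both axes), 1 point per library, coloured by strain. Ppy and Pyy rise together (r = 0.784), while r was 0.083 for Npy against Ppy and 0.203 for Npy against Pyy.

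The other islet hormones followed the members only in part. Pyy went with Sst (r = 0.451, rho = 0.419, permutation adjusted p = 0.00522, r = 0.407 without the 2 farthest libraries), at 0.604 in C57BL/6J, 0.493 in DBA/2J and 0.224 in BALB/cJ, of which C57BL/6J passed on its own (permutation adjusted p = 0.0295). Npy went with Sst too (r = 0.447, rho = 0.454, permutation adjusted p = 0.0146, r = 0.486 without the 2 farthest), most in BALB/cJ (0.749, permutation adjusted p = 0.0134). The relations of the 3 members with Gcg and Ins2 did not pass. Npy against the mean of Schwann cell markers gave r = 0.41 over all libraries (rho = 0.285, permutation adjusted p = 0.0238 for r and 0.152 for rho, r = 0.324 without the 2 farthest). That relation was not alike within strains, at 0.85 in C57BL/6J (permutation adjusted p = 0.0009), 0.432 in DBA/2J and -0.322 in BALB/cJ. The mean of acinar markers gave r = 0.038 with Pyy over all libraries (permutation adjusted p = 0.846), 0.722 in DBA/2J, where it passed (permutation adjusted p = 0.00153), -0.071 in C57BL/6J and -0.398 in BALB/cJ. With Ppy it gave 0.565 in DBA/2J (rho = 0.621, permutation adjusted p = 0.113 for r and 0.0313 for rho).

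The genes most like each member were sought among 10522 protein-coding genes by the same deviations, as a description without a test. For Ppy they were Tspan8, a tetraspanin (r = 0.809), Pyy (0.784), Bambi, a pseudoreceptor of the TGF-beta family (0.48), C1qtnf6 (0.453) and Fxyd6, a sodium pump regulator (0.452). For Pyy they were Ppy (0.784), Fxyd6 (0.683), the ephrin gene Efnb3 (0.661), Tspan8 (0.614) and Lgals3bp (0.609). Besides the members themselves, Tspan8 and Fxyd6 were on both lists. For Npy they included the synaptic vesicle gene Syngr3 (0.601), the kinase gene Cit (0.577), the protease gene Pappa2 (0.551) and the homeobox gene Meox1 (0.55). The same was done over the 18 group means, which hold differences of strain, diet and day together. There the nearest to Ppy was Pcid2 (r = 0.889), followed by Cox5b, Psmb4, Dapk3 and Prpf31 (0.876). The nearest to Pyy was Kifc3 (0.899), followed by Gpi1, Unc45a, Rapgef3 and Blcap (0.867). The nearest to Npy was Ppih (0.954), followed by Ttbk1, Fbp1, AI467606 and Dmtn (0.945).

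Of the receptors of the family, Npy1r, the Y1 receptor gene, was the 1 of 5 in the table, and Npy2r, Npy4r, Npy5r and Npy6r were not analysed here. Npy1r was low, at a mean of -0.08 log2 CPM, and passed in none of the contrasts above for diet over all strains (-0.12) or for strain on RC (-0.08 for BALB/cJ minus C57BL/6J, 0.19 for BALB/cJ minus DBA/2J, -0.27 for DBA/2J minus C57BL/6J). Downstream, none of 8 measured genes of inhibitory G proteins and their potassium channels passed for diet over all strains (median log2 change 0.03, against 0.00 over all genes). Between BALB/cJ and DBA/2J on RC, where 35% of all genes were called, 1 was higher and 4 lower. The largest difference was that of Kcnj5, a subunit of G protein-gated potassium channels, at -5.86.

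Genes of peptide hormone processing and breakdown, which are enzymes beside a convertase inhibitor and a chaperone, were a list of 10 genes. Under HFD over all strains, where 5.47% of all genes were called, 1 of them fell, and the median was -0.01. The gene that fell was Pam, which amidates the end of the peptides (-0.09 ± 0.02, adjusted p = 0.00713 by limma). The prohormone convertase genes Pcsk1 (-0.08) and Pcsk2 (0.01), the convertase inhibitor gene Pcsk1n (0.14), Scg5 (-0.07), the carboxypeptidase genes Cpe (-0.04) and Cpd (0.07), Qpct (-0.03), and the peptidase genes Dpp4 (0.00) and Mme (0.15) did not pass. Between BALB/cJ and C57BL/6J on RC, where 56.3% of all genes were called, 5 were higher and 3 lower (median 0.13). Scg5, the chaperone of Pcsk2, was higher by 1.14, Mme, which encodes neprilysin, by 2.71, Qpct by 0.81, Pcsk1 by 0.32 and Pcsk2 by 0.23, and Dpp4, which shortens peptide YY and neuropeptide Y, stood at -0.64, Cpd at -0.33 and Cpe at -0.19. Between BALB/cJ and DBA/2J, where 35% of all genes were called, 4 were higher, Pcsk2 by 0.57, Pcsk1 by 0.50, Cpe by 0.24 and Mme by 1.32, and Dpp4 was lower (-0.17).

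None of the 17 other islet peptide genes measured rose under HFD over all strains, where 5.47% of all genes were called. Of the 17, 2 fell, the beta cell peptide gene Ucn3 (-0.14) and Pthlh (-0.44), and the median of the list was -0.11. Sst (0.06), Gcg (0.04), Ins1 (-0.12), Ins2 (-0.06), Iapp (-0.08) and the ghrelin gene Ghrl (-0.03) did not pass in limma. Between BALB/cJ and C57BL/6J on RC, 9 of the 17 were higher and 1 lower (median 0.49), a share near the 56.3% of all genes called, among them Vgf (1.18), Grp (2.74) and Tac1 (1.90), which encode neuropeptides, beside Sst and Gcg. The lower gene was Pthlh (-0.74). Ins1 was higher by 0.45, and Ins2 (0.24), Iapp (0.08) and Ghrl (-0.08) did not pass. Between BALB/cJ and DBA/2J on RC, where 35% of all genes were called, 8 were higher and 2 lower, led by Ghrl (2.88), Tac1 (2.55) and Gal (2.12). The difference of Npy, 3.56 and 3.13 in these contrasts, was above that of each of the 17 genes.

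Markers of the cells that can make or carry these transcripts were set beside the diet results. The called counts are to be read against the 5.47% of all genes called for diet over all strains. Of 11 measured PP cell markers 1 fell, Thsd7a (-0.33), and none rose (median -0.04), and their summed level in C57BL/6J was 492 to 635 CPM on RC and 442 to 666 CPM on HFD. None of 7 delta cell markers and none of 12 acinar markers passed (medians 0.01 and 0.19), while 1 of 10 alpha cell markers (Sphkap, -0.17), 1 of 11 beta cell markers (Ucn3) and 1 of 9 macrophage markers (Lyz2, -0.56) fell. Of 9 stellate cell and fibroblast markers 5 fell, among them Fn1 (-0.87), Col1a1 (-0.65) and Col3a1 (-0.57), with a summed level in C57BL/6J of 248 to 459 CPM on RC and 160 to 286.5 CPM on HFD. Of 9 endothelial markers 2 fell, Pecam1 (-0.14) and Cdh5 (-0.15), and of 8 Schwann cell markers 2 fell, among them Fabp7 (-0.66). Of 15 islet transcription factors Isl1 rose (0.12), of 5 measured genes of immature beta cells Fev rose (0.19), and no ductal marker (of 6) or nerve gene (of 8) passed. With the acinar mean, the Schwann cell mean, the macrophage and endothelial means or Gcg and Sst in the model, the log2 change of Pyy over all strains stayed between 0.44 and 0.59 and passed in limma. No fit held the PP cell mean, the stellate cell and fibroblast mean or the mean of another list constant. The part of the cell types in the change of Pyy was not tested.

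The same markers were set beside the high Npy of BALB/cJ. Compared with C57BL/6J on RC, 4 of 8 nerve and sympathetic genes were higher and 1 lower (median 0.85), a share of calls near the 56.3% of all genes, with Th, the rate-limiting enzyme of catecholamine synthesis, at 1.22 and Uchl1 at -0.57. Compared with DBA/2J, 5 were higher (Gal by 2.12, Chrna3 by 1.28, Vip by 1.23, Prph by 1.03 and Uchl1 by 0.67) and 1 lower, Th (-0.45), with a median of 0.85 and 35% of all genes called. The median over libraries of the mean log2 CPM of the 8 genes was 3.19 in BALB/cJ, 2.79 in C57BL/6J and 2.43 in DBA/2J, with ranges that overlapped. The summed level of the 8 genes was 155 to 309 CPM in BALB/cJ, 73.8 to 197 in C57BL/6J and 168 to 267.6 in DBA/2J, a sum to which Th gave a median of 111.2, 49.05 and 153.4 CPM. Gal and Slc18a2 were at the floor of the table in 5 and 1 libraries, and Dbh and Slc6a2 were not analysed here. Of 8 Schwann cell markers 6 were higher than in C57BL/6J and 5 than in DBA/2J, with summed levels of 21.9 to 43.5 CPM in BALB/cJ, 14.5 to 34.3 in C57BL/6J and 19.3 to 30.9 in DBA/2J. Of 7 delta cell markers 5 were higher than in C57BL/6J and 6 than in DBA/2J, with summed levels of 2960 to 5691, 1961 to 3666 and 2244 to 4470 CPM. The medians of that sum were 4221, 2480 and 2980 CPM in BALB/cJ, C57BL/6J and DBA/2J. Sst alone had medians of 3903, 2329 and 2719 CPM.

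The called counts of the other lists between BALB/cJ and C57BL/6J on RC are to be read against the 56.3% of all genes called there, a share that several lists did not exceed by much or at all. Of 9 stellate cell and fibroblast markers 7 were higher and 1 lower, of 9 endothelial markers 7 were higher, of 12 acinar markers 8, of 6 ductal markers 4, of 9 macrophage markers 1 was higher and 3 lower, of 10 alpha cell markers 3 were higher and 3 lower, and of 11 PP cell markers 6 were higher and 1 lower. Of 11 beta cell markers 4 were higher and 2 lower, of 15 islet transcription factors 4 were higher and 7 lower, and of 5 immature beta cell genes 1 was higher and 1 lower. Single fits held constant the acinar mean, the Schwann cell mean, the macrophage and endothelial means, or Gcg and Sst. No fit held the mean of the nerve, delta cell or any other list constant. The part of the cell types in the level of Npy was not tested beyond that. In the fits made, and in the rest of the 16 other settings tried, the Npy difference between BALB/cJ and C57BL/6J on RC was 2.45 to 3.90 and passed in limma.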

How the data were processed

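The labels' protocols describe hand-picked islets (RNA quality numbers 8.2 to 9.3), stranded poly(A) libraries (TruSeq) from 250 ng of RNA, and single-end reads of 125 bp. The authors deposited normalized log2 CPM values. Tools listed in the submitters' processing notes are HTSeq 0.9.1, STAR 2.5.3a and edgeR, with the build GRCm38, and parameters are not given in the sources used here. No column belonged to 3 of the 72 samples, which are not analysed here. Days were taken from the sample labels (5, 13 and 33), from which the series text (5, 13 and 13) differs, and the spelling C56BL/6J in a label was taken to mean C57BL/6J. The labels give no replicate numbers, so replicates are numbered in accession order. Each value has a floor of -3.54 log2 CPM, from which whole reads were recovered for 100% of the low values (up to 1000 reads, within 0.05 reads). A log2 change understates the fold of genes near that floor.

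The 14604 genes and 69 libraries entered 1 model with a mean for each of the 18 groups, in limma 3.58.1 in R 4.3.3 (lmFit, eBayes with trend). A filter of log2 CPM above 0 in at least 4 libraries removed no gene. Contrasts are two-sided, with Benjamini-Hochberg adjustment over all genes within each contrast. Values after ± are standard errors unless marked SD or given for a group mean, where they are SDs. Differences between members and correlations were tested by permutation (numpy 2.4.6). The members, gene lists, contrasts and alternatives were chosen with earlier results of these data known. Besides the members, the genes named are the receptors, the processing genes, Gcg, Sst, Ins1, Ins2, Iapp and Ghrl, up to 4 genes of lowest p per other list and contrast, and the 5 genes most alike to each member, leaving out non-coding genes and the lowest 25% by level. Slc18a2, Vip, Prph and the lower Pthlh were named after their values were seen. Some genes that this rule names are not reported here. The scripts were tested on simulated data. Coordinates are from GENCODE, which matched 14589 genes. Alternatives changed the filter, scaling, prior count, weights, covariates and libraries. The planned count tests (edgeR's quasi-likelihood test and a second tool) were not run because the deposited unit is log2, and voom on recovered reads was.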

Additional observations from a re-analysis of the deposited data

Results flagged for a closer look

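In 5 of the 45 sets of 4 libraries tested, 1 library lay far from the other 3, by Dixon's ratio of the gap to the range above its 95% critical value. Chance alone gives about 1 in 20 such sets. Npy was 1.89 log2 CPM in C57BL/6J RC day 5 replicate 3, against 3.01 to 3.11 in the others of its group. Npy was 1.71 in DBA/2J RC day 13 replicate 1, against 2.85 to 3.02. Ppy was 11.25 in C57BL/6J HFD day 13 replicate 1, against 11.71 to 11.77, and 12.2 in DBA/2J RC day 5 replicate 2, against 11.44 to 11.53. Pyy was 10.84 in C57BL/6J HFD day 5 replicate 2, against 10.03 to 10.13.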

How the results depend on the processing

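Of 1485 recomputed values over 108 results, 1444 kept their call, 20 lost it, 20 gained it and 1 lost it with a change of sign, and the sign of 56 values with no call changed. With 1 library left out, 1899 of 1932 kept it, 14 lost it and 19 gained it, and 44 values with no call changed sign. Having no filter repeats the reported fit, since the filter removed no gene, and is not counted. The Pyy diet change over all strains (0.439 to 0.588) and the Npy differences of BALB/cJ on RC (2.446 to 3.901 and 2.482 to 3.775) passed in limma in the 16 other settings. The edgeR quasi-likelihood test and the second count tool were not run, since the deposited unit is log2. The causes of the changes below were not tested.

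With quantile normalization, calls were lost for Pyy under HFD in BALB/cJ (0.507), Pyy in BALB/cJ minus C57BL/6J on HFD (0.287) and the correlation of Npy with Schwann cell markers (0.313), and gained for Ppy in DBA/2J minus C57BL/6J on RC (0.53). With voom on recovered reads, Ppy in BALB/cJ minus C57BL/6J on HFD (0.408) and the Npy change from day 5 to day 33 in BALB/cJ on HFD (1.592) gained a call, and that in DBA/2J on HFD (-1.382) lost it. With array weights, calls were gained for Ppy under HFD in C57BL/6J (0.512) and there at day 33 (1.202), Pyy at day 13 (0.689) and day 33 (1.007) in C57BL/6J, in DBA/2J at day 5 (0.639) and in BALB/cJ at day 13 (0.955), and Ppy in DBA/2J minus C57BL/6J on RC (0.528), and lost for the Npy day change in DBA/2J on HFD (-0.662). Array weights called 159 genes for diet in DBA/2J in place of 0. With each strain fitted alone, Pyy under HFD in BALB/cJ (0.553) lost its call.

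With the number in the library title as a covariate, Pyy under HFD in C57BL/6J (0.519) and Pyy in BALB/cJ minus C57BL/6J on HFD (0.517) lost their calls, and the Npy day change in C57BL/6J on RC (-2.74) gained one. With that number fitted per strain, chosen after seeing the data, the first 2 (0.875 and 0.314) and the Npy day change in DBA/2J on HFD (-2.537) lost theirs. In C57BL/6J at day 5, where all HFD libraries had lower numbers than all RC libraries, diet cannot be told apart from the title number. With it as a replicate block (21 pairs, correlation 0.057), Ppy in BALB/cJ minus C57BL/6J on HFD (0.408) gained a call, and the block changed no other call. With the acinar mean as a covariate, Ppy gained calls on RC in DBA/2J minus C57BL/6J (0.487) and on HFD in BALB/cJ minus C57BL/6J (0.429). With macrophage and endothelial means, BALB/cJ minus C57BL/6J lost its calls for Ppy on RC (0.584) and Pyy on RC (0.295) and HFD (0.318), and the Pyy day change in DBA/2J on HFD (-0.577) gained one. With the Schwann cell mean, the Npy day change in BALB/cJ on HFD (1.913) gained a call. With Gcg and Sst, BALB/cJ minus C57BL/6J lost its calls for Ppy on RC (0.517) and Pyy on RC (0.006) and HFD (-0.017), as did the Npy day change in DBA/2J on HFD (-0.726), and Pyy in DBA/2J minus C57BL/6J on RC (-0.393) gained one. Without day 5, BALB/cJ minus C57BL/6J lost its call for Pyy on RC (0.36) and gained one for Ppy on HFD (0.479). Pyy under HFD in BALB/cJ lost its call without day 13 (0.396) and without day 33 (0.527), and without day 33 Ppy on HFD gained calls in DBA/2J (0.456) and BALB/cJ (0.445), each minus C57BL/6J.

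With 1 library left out, calls were lost for the Npy day change in DBA/2J on HFD (-1.635 to -1.051), Ppy minus Npy (0.383 to 0.522) and Pyy under HFD in BALB/cJ (0.468 to 0.604). Calls were gained for Npy in DBA/2J minus C57BL/6J on RC (0.275 to 0.640), the Npy day change in BALB/cJ on HFD (1.301 to 1.790), Ppy in BALB/cJ minus C57BL/6J on HFD (0.321 to 0.553), and Ppy and Pyy in DBA/2J minus C57BL/6J on RC (0.202 to 0.561 and -0.326 to -0.156). They were also gained for Pyy under HFD in C57BL/6J at day 33 (0.396 to 0.905) and DBA/2J at day 5 (0.469 to 0.786), and for its day change in DBA/2J on HFD (-0.629 to -0.312). Npy outside BALB/cJ rests on 28 to 419 reads a library.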
